A study of Mus musculus with 3 samples.

Results

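Fibroblast-like mesenchyme was picked out of mouse palate single-cell libraries by its RNA. Members were chosen by their measured UMI counts. A member was a cell barcode with at least 500 detected genes and at least 1 molecule each of 2 or more of Dcn, Lum, Ogn, Mgp and Angptl1. It also had to hold no molecule of Runx2, Pax9, Col2a1, Top2a, Mki67, Epcam, Pecam1, Tyrobp or Sox10, which mark bone, palatal patterning, cartilage, dividing, epithelial, endothelial, myeloid and glial cells. The rule took 365 of 8107 barcodes (4.50%). The libraries came from palatal shelves, the outgrowths of the upper jaw that fuse into the secondary palate, of wild-type C57BL/6J embryos. There was 1 library for each of embryonic days E13.5, E14.5 and E15.5, each from tissue pooled from 3 embryos, dissociated with TrypLE and fixed in methanol for 10x droplet capture. No embryo carried a mutation or received a treatment, and the labels do not tell the pooled embryos apart. With 1 library per stage, no stage has a replicate, and every interval below is a 95% interval that covers counting error only.

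Fibroblasts build and remodel the extracellular matrix of soft tissue. Decorin (Dcn), lumican (Lum) and osteoglycin (Ogn) are small leucine-rich proteoglycans, which bind collagen fibrils and control their width and spacing. Matrix Gla protein (Mgp) is a vitamin K dependent inhibitor of calcification, and Angptl1 encodes a secreted protein related to the angiopoietins. In the palate, mesenchyme derived mainly from neural crest gives rise both to the bone of the hard palate and to the loose connective tissue under its epithelium.

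In GRCm38, Dcn lies on chromosome 10 from 97479609 to 97518143, next to Lum (97565128 to 97572703), Kera (97606879 to 97613692) and Epyc (97644068 to 97682454), all on the plus strand. Ogn lies on chromosome 13 from 49608046 to 49624501, in a like row with Ecm2, Aspn and Omd. Mgp is on chromosome 6 (136872435 to 136875823, minus strand) and Angptl1 on chromosome 1 (156838562 to 156861078, plus strand).

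Mfap2, Itm2a and Acta2 were called higher in members against both comparison groups below and without each library in turn. Ogn was the marker found in most members. The 250 bases before the start of these 4 genes are shown. They are from RefSeq, build GRCm38.p6, written 5′ to 3′ on the gene's strand. Capitals mark the TATA element TATAAA, the MCAT element CATTCC and the E-box CAGCTG, each searched on both strands.
Mfap2 promoter, chr4:141010174-141010423, plus strand: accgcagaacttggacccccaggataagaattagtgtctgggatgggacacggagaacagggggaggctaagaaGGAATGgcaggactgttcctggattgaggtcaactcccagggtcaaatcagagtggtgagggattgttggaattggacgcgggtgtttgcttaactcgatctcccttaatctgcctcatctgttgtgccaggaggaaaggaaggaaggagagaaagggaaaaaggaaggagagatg
Itm2a promoter, chrX:107403361-107403610, minus strand: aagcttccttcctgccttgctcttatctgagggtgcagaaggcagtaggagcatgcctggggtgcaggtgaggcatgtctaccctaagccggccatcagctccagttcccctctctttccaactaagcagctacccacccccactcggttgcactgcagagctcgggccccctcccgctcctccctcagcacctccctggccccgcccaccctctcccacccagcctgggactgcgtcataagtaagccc
Acta2 promoter, chr19:34255374-34255623, minus strand: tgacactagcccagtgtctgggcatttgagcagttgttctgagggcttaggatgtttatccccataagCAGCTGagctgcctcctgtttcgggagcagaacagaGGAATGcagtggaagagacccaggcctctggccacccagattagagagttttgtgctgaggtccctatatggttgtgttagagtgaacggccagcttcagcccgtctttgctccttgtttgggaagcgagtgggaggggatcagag
Ogn promoter, chr13:49607765-49608014, plus strand: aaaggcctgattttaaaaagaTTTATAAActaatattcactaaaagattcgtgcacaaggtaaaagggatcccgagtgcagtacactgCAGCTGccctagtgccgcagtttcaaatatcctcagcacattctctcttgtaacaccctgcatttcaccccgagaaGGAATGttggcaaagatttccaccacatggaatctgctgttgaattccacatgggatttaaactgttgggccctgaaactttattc
CATTCC was in the Mfap2, Acta2 and Ogn stretches and in 12.6% of 32851 promoter stretches of this length. CAGCTG was in the Acta2 and Ogn stretches and in 13% of all. TATAAA was only in the Ogn stretch among the 4, as 2 overlapping matches on opposite strands, and in 12.4% of all. The Itm2a stretch held none of the 3 motifs. These are matches of letters and nothing was measured on binding.

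The members were few at E13.5 and more numerous at the later stages. At E13.5 there were 32 of 3692 barcodes, at E14.5 98 of 1775, and the E15.5 library gave 235 of 2640. These are shares of 0.867% (0.594 to 1.22), 5.52% (4.50 to 6.69) and 8.90% (7.84 to 10.1), with exact Clopper-Pearson intervals that do not overlap between libraries. Barcodes with 2 or more of Prrx1, Prrx2, Twist1, Twist2, Pdgfra and Col3a1 (the mesenchymal gate) numbered 549, 1005 and 1493, which is 14.9%, 56.6% and 56.6% of the barcodes with at least 500 genes. The gate's share was therefore lower at E13.5 and alike in both later libraries. Of the gated barcodes, members made up 3.46%, 7.36% and 11.7%, with exact intervals that do not overlap. Most barcodes with the markers were not members: of 1609 barcodes with 2 or more markers, 1244 (77.3%) were left out because they held a barred gene.

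Marker RNA was also counted where it should be lacking. Within the gate, 17.3%, 41.3% and 54.9% of barcodes had 2 or more markers in the 3 libraries, in order of stage, at median depths of 3263, 2259 and 2563 UMIs (unique molecular identifiers, which count molecules). Outside the gate, barcodes with neuronal genes had 1.20%, 0.769% and 2.70%, at median depths of 2351, 2048.5 and 2289 UMIs. After all barcodes were thinned to 1500 UMIs, the gated shares were 4.51%, 25.7% and 38.5%, and the neuronal shares 0.225%, 1.16% and 0.758%. The gated share was thus above the neuronal one in each library, with intervals that do not overlap. Barcodes with epithelial genes gave 0.746%, 1.03% and 2.15% after thinning, and at E13.5 their interval (0.0189 to 4.09) overlapped that of gated barcodes (2.78 to 6.89). Glial barcodes gave 0%, 4.55% (0.115 to 22.8) and 7.14% (0.877 to 23.5), from 44, 22 and 28 barcodes, the highest share outside the gate at E14.5 and E15.5. At E13.5 the intervals of the myeloid, endothelial, glial and muscle classes, of 9 to 44 barcodes each, also overlapped the gated one, and the glial one still did at E14.5. The muscle class, of 9, 10 and 5 barcodes, had no barcode with 2 markers in any library and intervals too wide to compare.

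**Figure D1:**
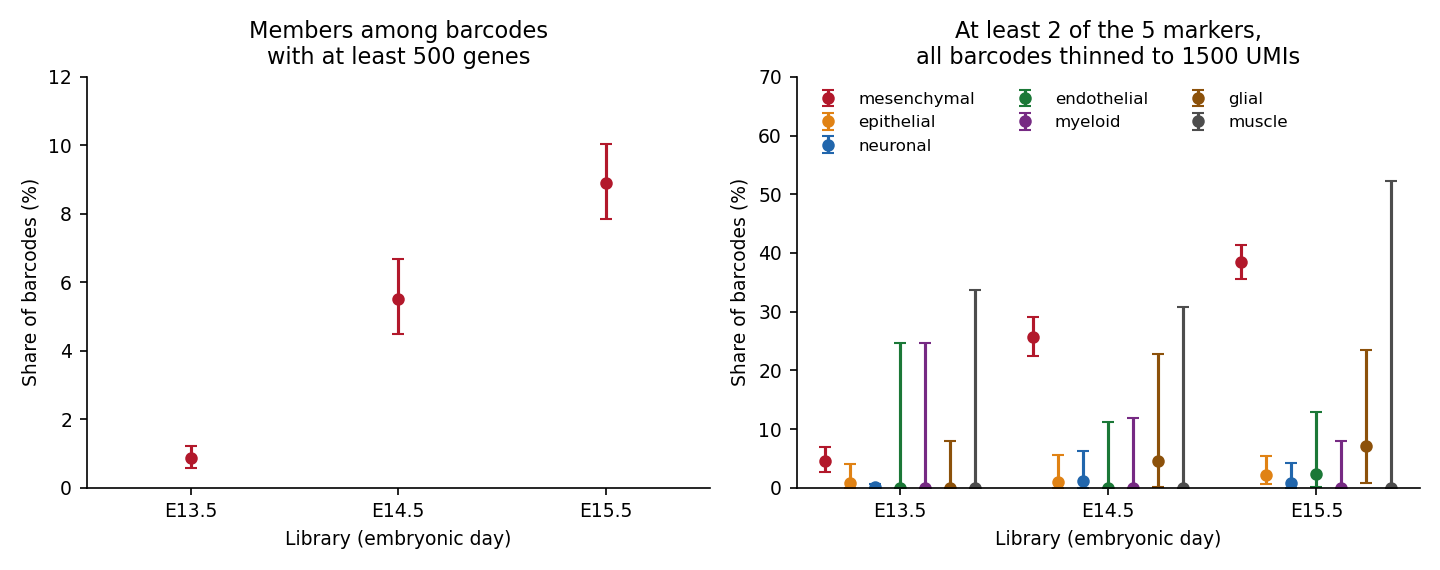
Left, share of barcodes with at least 500 genes that were members (%), by library. Right, share of barcodes of each class with 2 or more of the 5 markers after thinning to 1500 UMIs (%). Points are the values of single libraries and bars are exact 95% binomial intervals. Member shares were 0.867%, 5.52% and 8.90%, and the mesenchymal share reached 38.5% at E15.5 while the next highest class, glial, lay at 7.14% from 28 barcodes.

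The label was checked against genes that the marker rule did not use. Col3a1, a fibrillar collagen of soft tissue, was detected in 56.3%, 81.6% and 83.4% of members, from the youngest library to the oldest. The mesenchymal gate was passed by 19 of 32, 74 of 98 and 175 of 235 members. Of the genes of adult fibroblasts, Pi16, Ly6a, Ly6c1 and Clec3b had no UMI in members of any library. The summed level of all 16 genes of that list was 575, 813 and 954 CPM (UMIs per 1000000 summed UMIs of the group) in members against 329, 663 and 732 CPM in other mesenchyme. Barcodes with 2 or more of these genes made up 37.5%, 24.5% and 35.3% of members and 28.1%, 36.6% and 43.9% of the deeper other mesenchyme. Of the 32 members at E13.5, 9 carried 2 or more of 7 neuronal genes, whereas the later libraries had 0 and 2 such members. The summed level of the neuronal list in members was 642, 37.0 and 133 CPM, against 1251, 260 and 188 CPM in other mesenchyme. The E13.5 members are therefore described by their rule, and their results are given with and without that library where they matter. The summed lists of myeloid, endothelial, muscle, epithelial and glial genes reached at most 23.1, 38.3, 38.3, 49.9 and 57.5 CPM in members of any library, and those of bone and cartilage genes 673 and 982 CPM. At E13.5 the endothelial and muscle sums, 4 UMIs each, lay above other mesenchyme (25.7 and 12.2 CPM), with intervals from 10.4 to 98.2 CPM that held both levels. At that stage 9 of 9 myeloid and 9 of 9 epithelial genes were at 0.

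The libraries held 11472663, 5293977 and 8313677 UMIs, and shared 3, 1 and 1 barcode sequences between pairs, none of them a member. Summed over members, depth was 104343, 216386 and 540692 UMIs, so that 1 UMI was worth 9.58, 4.62 and 1.85 CPM. Members were shallower than other mesenchyme, with median UMIs of 2769.5, 1894 and 1762 against 3256.5, 2294 and 2632. Malat1, a nuclear RNA, took 9.67%, 10.3% and 9.69% of members' UMIs against 7.50%, 7.67% and 7.34%. Globin RNA took 0.202%, 0.747% and 1.28% against 2.01%, 1.05% and 0.872%. The part of these differences in the results was not tested.

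The 5 markers chose the members, so their levels are a description. Ogn was found in 223 of the 365 members, Dcn in 215, Angptl1 in 197, Lum in 176 and Mgp in 139. Dcn stood at 335 CPM (234 to 467) in the youngest members, 458 (372 to 557) in the next library and 645 (580 to 717) in the oldest. Lum was at 249, 254 and 385 CPM, and Ogn at 259, 555 and 732 CPM. Mgp was at 173, 310 and 392 CPM, and Angptl1 at 163, 444 and 494 CPM. All 5 were highest at E15.5, and for Lum, Dcn and Mgp the intervals at E13.5 and E14.5 overlapped. In other mesenchyme the same genes were not absent: Ogn reached 60.0, 240 and 357 CPM there, and Dcn 36.9, 147 and 246 CPM.

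**Figure D2:**
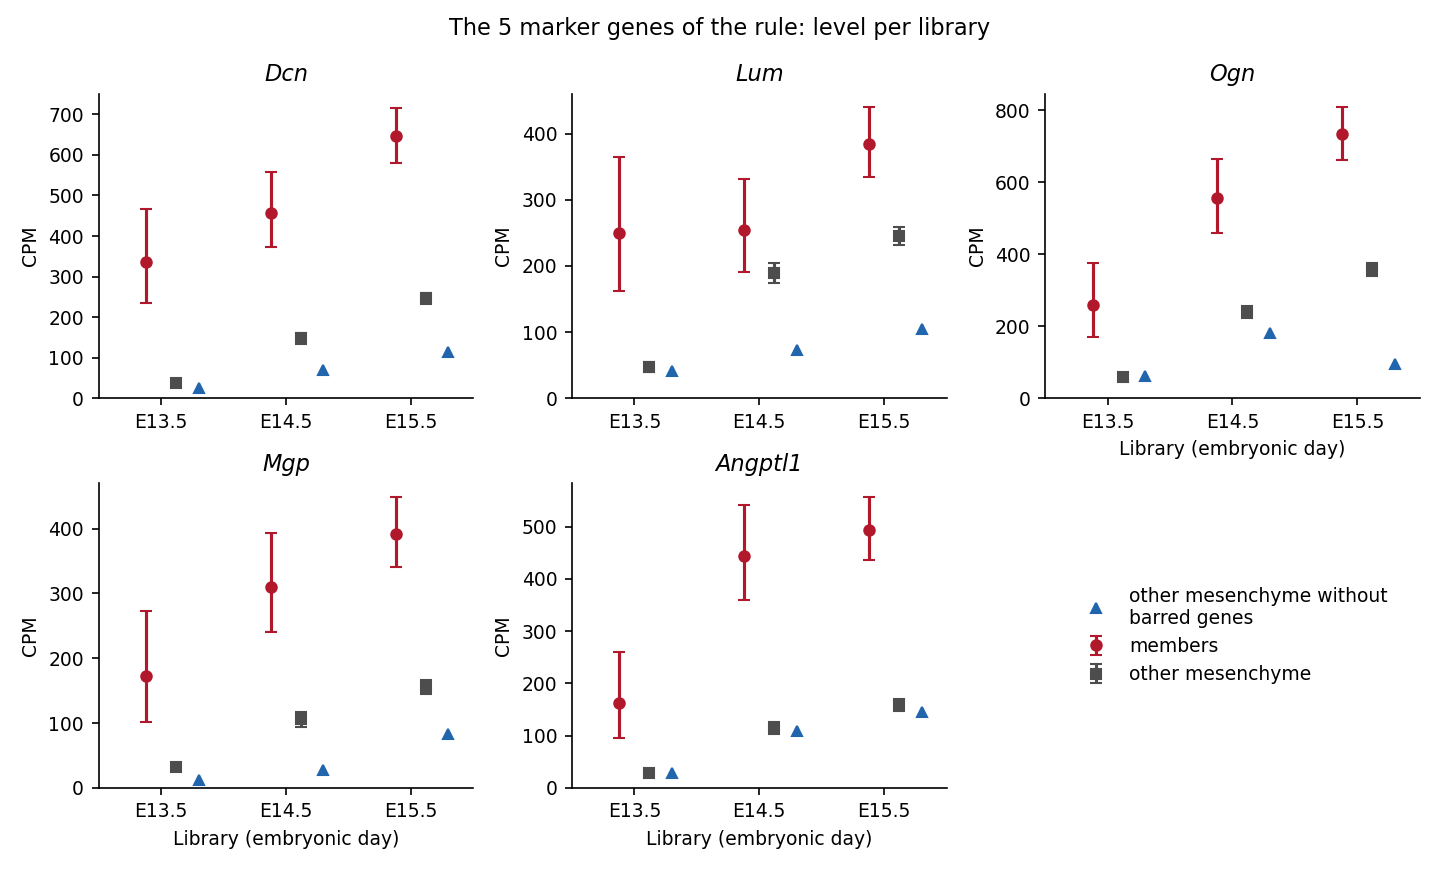
CPM of the 5 marker genes in each library, in members (circles), other mesenchyme (squares) and other mesenchyme without any of the 9 barred genes (triangles, no interval drawn). Bars are exact 95% Poisson intervals. Members lie above both comparison groups in each library, which the rule itself imposes, and all 5 genes are highest at E15.5 in both groups with intervals.

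Most members lay near the threshold. Exactly 2 markers were found in 213 members (58.4%), and only 5, 36 and 111 members of the 3 libraries had 3 or more. Just outside the rule stood the barcodes with exactly 1 marker and no barred gene, which numbered 123, 120 and 181 against 27, 62 and 124 with exactly 2. The gate was passed by 33.3%, 61.7% and 61.9% of those with 1 marker and by 59.3%, 74.2% and 69.4% of those with 2. Their median depths were 1899, 1256 and 1264 UMIs with 1 marker and 2478, 1766 and 1463 with 2, so the barcodes with 2 markers were deeper in each library. The commonest pairs were Ogn with Dcn (116 members), Ogn with Angptl1 (115) and Dcn with Lum (110), and the rarest was Lum with Mgp (51).

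Members were then compared with the 2779 other mesenchymal barcodes. Mfap2, Acta2 and Itm2a were higher in members, and none of the 5 fibrillar collagens and 8 Wnt antagonists tested passed with all 3 libraries and all UMIs counted. UMIs were summed per library and group and tested with edgeR's quasi-likelihood test with the library as a block (n = 3 libraries), and the 20 genes of the rule were left out. Of 12253 genes, 206 were higher (1.68%) and 478 lower (3.9%) at a Benjamini-Hochberg adjusted p under 0.05, and the median log2 fold change of all genes was -0.09. The number depends on single libraries: it was 614 higher without E13.5, 42 higher and 148 lower without E14.5, and 33 higher and 125 lower without E15.5. Of the 206 rises, 159 had the same direction in all 3 libraries, and 6 remained past the threshold without each library in turn, among them Mfap2, Acta2, Itm2a, Tfpi and Kdelr3. Every other rise named below was lost without at least 1 library. The falls of Bmp6, Igf1r, Dlx1, Zeb2, Ebf2, Zfhx3 and Hsp90aa1 were each lost without E14.5 and without E15.5, and that of Dlx1 also without E13.5. In 22 of the 206, a single barcode held over 50% of the members' UMIs.

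A closer comparison group was other mesenchyme that also lacked the 9 barred genes, 121, 158 and 181 barcodes with median depths of 1876, 1346 and 1225 UMIs. Against it edgeR called 6 of 5918 genes higher (0.101%) and 4 lower (0.0676%), with 773 at an unadjusted p under 0.05. The 6 were Acta2, Ecrg4, Nrxn3, Itm2a, Ier2 and Mfap2, and the lower genes included Inpp4b, Unc5d and Rerg. They were named because there were so few. Of the 196 Nrxn3 UMIs in members, 170 were at E13.5 and 51.0% lay in 1 barcode. Ecrg4 had no UMI in either group at E13.5. Of the 206 rises against all other mesenchyme, 181 were tested here, 180 kept a log2 fold change above 0 and 4 were called. Of the falls, 240 were tested here and 224 kept a log2 fold change below 0. Both comparisons use the same member sums, and the closer group has fewer UMIs, whose part was not tested.

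Mfap2 encodes a small glycoprotein of the microfibrils that carry elastin. Its level in members was 920, 1049 and 1112 CPM from the youngest to the oldest library, an order kept below, against 349, 438 and 555 CPM in other mesenchyme. Members were above other mesenchyme in each library and the ranges of the 3 libraries did not overlap. The log2 fold change was 1.22 ± 0.17 (SE, n = 3 libraries) with an edgeR adjusted p of 2.91e-10. Against mesenchyme without barred genes it was 1.06 (edgeR adjusted p = 0.0312), with other mesenchyme at 513, 479 and 521 CPM. Each SE given here and below is the log2 fold change divided by the square root of edgeR's F statistic. It is not the spread of the 3 library ratios.

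Acta2 encodes the smooth muscle actin that also marks myofibroblasts and the mural cells around vessels. Members had 57.5, 69.3 and 139 CPM (6, 15 and 75 UMIs), against 5.78, 20.6 and 43.0 CPM. Each library was higher in members, by a log2 fold change of 1.93 ± 0.29 (SE, n = 3 libraries, edgeR adjusted p = 1.36e-08). The UMIs came from 19 member barcodes, 1 of which held 28.1% of them. Of 9 mural genes tested Acta2 alone was called. Tagln, which encodes an actin-binding protein of smooth muscle, was at 0, 55.5 and 61.0 CPM in members against 5.13, 20.3 and 36.5 CPM, and passed without E13.5 (log2 fold change 1.09, edgeR adjusted p = 0.014). Rgs5, a pericyte gene, was at 0, 0 and 12.9 CPM. The summed level of the 10 mural genes, Acta2 included, was 163, 259 and 466 CPM in members against 117, 237 and 302 CPM, and its part in the result was not tested. Against mesenchyme without barred genes its log2 fold change was 3.03 (edgeR adjusted p = 0.021), and where both groups also had to pass the gate 2.92 (edgeR adjusted p = 0.0228). After thinning to 1500 UMIs the log2 fold change of Acta2 was 0.55 (edgeR adjusted p = 0.695), and with 3 or more markers it was 1.18 (adjusted p = 0.289).

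Itm2a, which encodes an integral membrane protein, stood at 383, 273 and 353 CPM in members and 86.0, 185 and 184 CPM in other mesenchyme. Members were higher in each library, most at E13.5, with log2 ratios of 2.14, 0.56 and 0.94. The log2 fold change was 1.15 ± 0.18 (SE, n = 3 libraries, edgeR adjusted p = 1.06e-07), and 1.20 against mesenchyme without barred genes (adjusted p = 0.0413). Where both groups also had to pass the gate and lack barred genes, Mfap2 and Itm2a kept log2 fold changes of 1.06 and 1.13 but missed the threshold (edgeR adjusted p = 0.111 and 0.120).

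Other large rises were in genes of varied function. Tfpi, an inhibitor of blood coagulation, stood at 28.8, 125 and 72.1 CPM against 13.2, 27.7 and 28.8 CPM (log2 fold change 1.68). Kdelr3, a receptor that returns proteins to the endoplasmic reticulum, stood at 125, 92.4 and 96.2 CPM against 18.6, 44.0 and 47.8 CPM (1.39). Against mesenchyme without barred genes Tfpi and Kdelr3 were at 1.32 and 0.87 (edgeR adjusted p = 0.149 and 0.261). The other named rises were Lsp1 (1.30), Wnt5b (1.28), Tcea3 (1.25), Ramp2 (1.22), Pabpc4l (1.17), Osr1 (1.17), Slc26a7 (1.17), Ndufs8 (1.09) and Mirg (1.09), all log2 fold changes with edgeR adjusted p from 0.000302 to 0.00561. Lsp1 was at 0.45 against mesenchyme without barred genes (edgeR adjusted p = 0.544). Of the Wnt5b UMIs, 39.6% came from 1 barcode, and with at most 5 UMIs of a gene per barcode it was at 0.75 (edgeR adjusted p = 0.204).

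**Figure D3:**
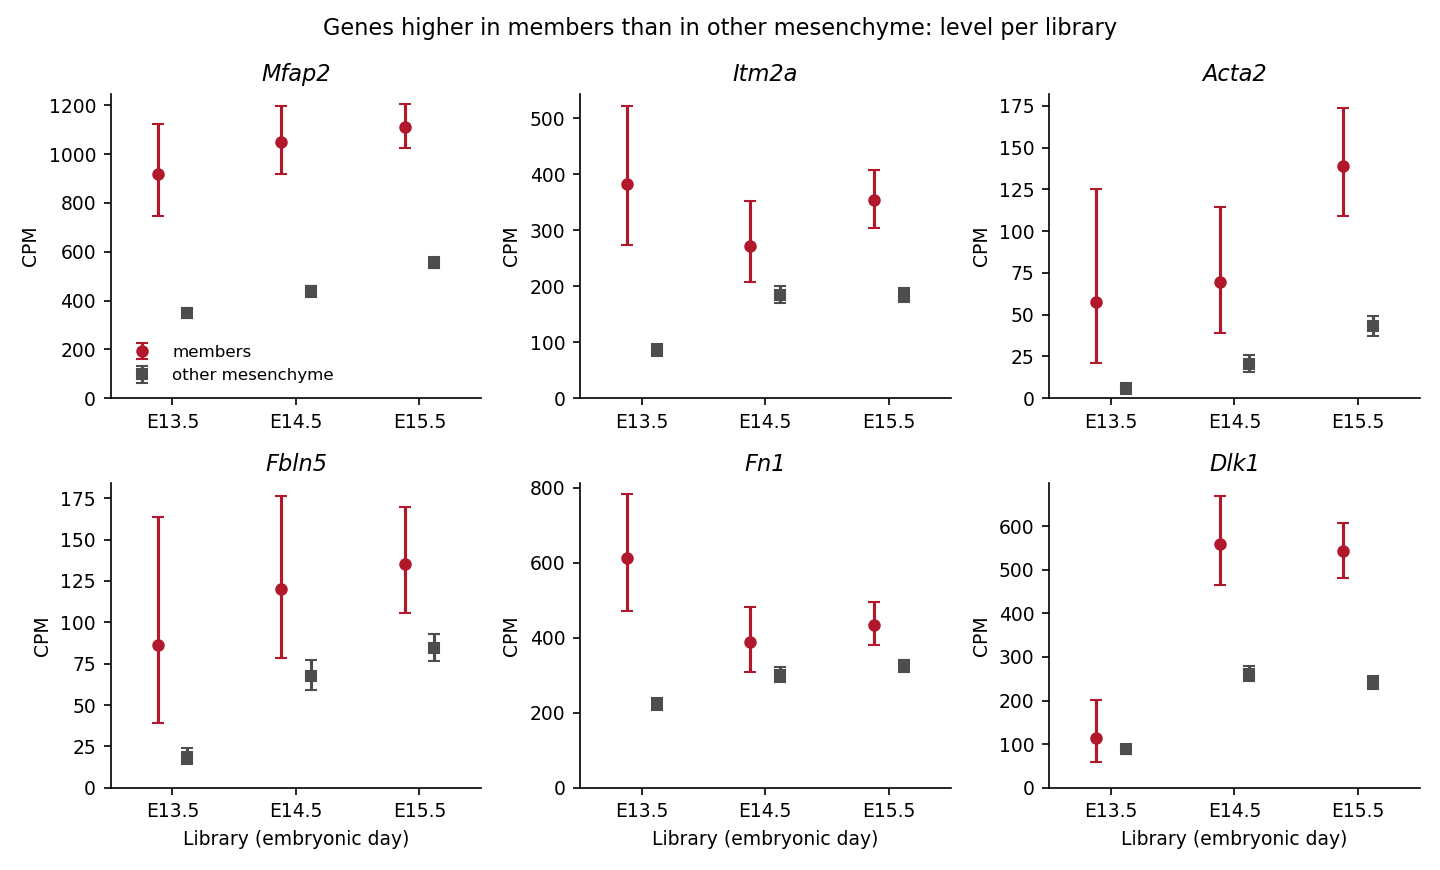
CPM of 6 genes that passed the test against other mesenchyme, in members (circles) and other mesenchyme (squares), by library. Bars are exact 95% Poisson intervals. Members are above other mesenchyme in each panel and library, and the intervals of Mfap2, Itm2a and Acta2 are apart in all 3 libraries. Those of Dlk1 overlap at E13.5 and those of Fn1 at E14.5.

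Elastic fibre and microfibril genes were the matrix list with the most calls. Of 17 tested, 4 were higher (Mfap2, Mfap4, Mfap5 and Fbln5), none was lower, and the list's median log2 fold change was 0.45. Fbln5, which helps assemble elastin, was at 86.3, 120 and 135 CPM in members against 18.6, 67.7 and 84.6 CPM. Mfap4, another microfibril-associated protein, was at 105, 245 and 281 CPM against 81.8, 141 and 188 CPM. Both were higher in each library, with log2 fold changes of 0.96 ± 0.24 and 0.66 ± 0.19 (SE, n = 3 libraries, edgeR adjusted p = 0.00231 and 0.0197). Elastin itself (Eln) had 47.9, 453 and 468 CPM against 32.7, 267 and 377 CPM and an edgeR adjusted p of 0.0556. Without E13.5 the list had 6 calls, and without E14.5 or E15.5 it had 1. Against mesenchyme without barred genes 1 of 13 tested, Mfap2, was called and the median was 0.13.

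None of 5 fibrillar collagens tested passed. Col3a1 was not tested because it is a gate gene: it was at 498, 1493 and 1744 CPM in members against 323, 1183 and 1288 CPM in other mesenchyme, and was detected in a smaller share of members (56.3%, 81.6% and 83.4%) than of other mesenchyme (73.2%, 90.3% and 92.5%). Col1a1, the main collagen of bone and skin, was at 364, 3799 and 3675 CPM in members and 269, 2916 and 3313 CPM in other mesenchyme. The 5 genes had log2 fold changes from 0.17 to 0.43, 2 of them had an unadjusted p under 0.05, and DESeq2 called 0. Without E13.5, 2 passed. With at most 5 UMIs of a gene per barcode, an alternative added after seeing the data, Col1a1, Col1a2 and Col5a2 passed with all 3 libraries (log2 fold changes 0.68, 0.48 and 0.52, edgeR adjusted p = 1.15e-13, 1.24e-06 and 8.38e-05). Members were the shallower group, and the part of depth in these calls was not tested. Among 14 other collagens, 2 were higher. Col14a1, a fibril-associated collagen, was at 9.58, 194 and 257 CPM against 29.5, 75.7 and 124 CPM, and its 1 UMI in members at E13.5 gives an interval (0.243 to 53.4 CPM) that holds the other group's level. Col6a1, of the beaded filament collagen, was at 76.7, 226 and 187 CPM against 22.5, 107 and 127 CPM. Their log2 fold changes were 1.07 and 0.93 (edgeR adjusted p = 3.92e-05 and 0.000593), and against mesenchyme without barred genes 0.18 and 1.01 (edgeR adjusted p = 0.833 and 0.112). Of 17 genes that process collagen, Lox, which cross-links collagen and elastin, and Ppib, a collagen folding factor, were higher, by 0.80 and 0.66 on the log2 scale. Against mesenchyme without barred genes they were at 0.31 and 0.81 (edgeR adjusted p = 0.582 and 0.133).

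Other leucine-rich proteoglycans were split by stage. Kera, the neighbour of Lum, had no UMI in members at E13.5 and 83.2 and 38.8 CPM later, against 0.642, 6.77 and 11.7 CPM in other mesenchyme. Aspn, which lies near Ogn and whose product binds collagen and TGF-beta, had no UMI at E13.5 and 813 and 805 CPM later, against 45.3, 359 and 544 CPM. Both were higher in members at E14.5 and E15.5, with log2 fold changes of 2.55 and 0.72 (edgeR adjusted p = 3.0e-06 and 0.00526). Kera went to 1.81 without E14.5 (edgeR adjusted p = 0.077) and to 3.52 without E15.5. Aspn went to 0.22 without E14.5 (edgeR adjusted p = 0.939), and to 1.57 against mesenchyme without barred genes (edgeR adjusted p = 0.0651). They were the only calls among 7 tested, with a median of 0.42, and biglycan (Bgn) stood at 9.58, 176 and 185 CPM against 26.3, 152 and 183 CPM. Omd, which lies between Aspn and Ogn, stood at 0, 27.7 and 24.0 CPM against 3.21, 36.6 and 55.1 CPM (log2 fold change -0.89, edgeR adjusted p = 0.215).

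Among adhesive matrix genes, fibronectin (Fn1) alone passed of 17 tested. It stood at 613, 388 and 435 CPM in members and 223, 301 and 324 CPM in other mesenchyme, and was highest in members at E13.5. Periostin (Postn) had 182, 1382 and 1733 CPM against 177, 877 and 1160 CPM, with an edgeR adjusted p of 0.0521, and 2.41e-08 without E13.5. Among 11 tested genes of adult fibroblasts, Cd34 and Fap were higher (log2 fold changes 1.27 and 0.80, and 0.63 and 0.65 against mesenchyme without barred genes), with a median of 0.38.

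Signalling genes gave a few calls each. Fstl1, a secreted modulator of Bmp signalling, was at 748, 947 and 1019 CPM in members against 339, 673 and 710 CPM (log2 fold change 0.71, edgeR adjusted p = 0.00164), and Bmp6 was lower (log2 fold change -0.87). They were the only calls among 28 Tgfb and Bmp genes. Against mesenchyme without barred genes Fstl1 was at 0.22 (edgeR adjusted p = 0.631). Of 16 Fgf, Pdgf and Igf genes, Igf1 and its binding protein Igfbp2 were higher (0.64 and 0.72), and the receptors Fgfr2 and Igf1r lower (-1.57 and -0.59). Fgfr2 was at -0.54 against mesenchyme without barred genes (edgeR adjusted p = 0.355), and Igf1r at -0.33 with at most 5 UMIs of a gene per barcode (edgeR adjusted p = 0.109). Against mesenchyme without barred genes Igf1 was at 0.35 and Igfbp2 at 0.71 (edgeR adjusted p = 0.514 and 0.306). The chemokine Cxcl12 was at 115, 347 and 364 CPM against 132, 167 and 169 CPM, so that its higher levels in members lay at E14.5 and E15.5. Its log2 fold change was 0.88 (edgeR adjusted p = 0.000176). Against mesenchyme without barred genes, at 294, 254 and 149 CPM, it was 0.41 (edgeR adjusted p = 0.604).

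The imprinted gene Dlk1, whose product restrains fat and bone differentiation, was at 115, 559 and 542 CPM in members against 88.3, 262 and 241 CPM (log2 fold change 1.05, edgeR adjusted p = 2.27e-06). Nnat was lower, with a log2 fold change of -0.80 that turned to 0.10 against mesenchyme without barred genes and to 0.17 with at most 5 UMIs of a gene per barcode. The other 10 imprinted growth genes did not pass. Vkorc1, which recycles vitamin K for proteins such as Mgp, was at 95.8, 157 and 174 CPM against 49.1, 89.2 and 91.7 CPM (0.93, adjusted p = 0.00079). None of 8 Wnt antagonists passed in the edgeR fit, where 1 had an unadjusted p under 0.05, or with DESeq2. Sfrp2 passed without E13.5 (log2 fold change 0.54, edgeR adjusted p = 0.000216) and with at most 5 UMIs of a gene per barcode (0.67, edgeR adjusted p = 4.75e-07). Of 9 Wnt targets, Znrf3 was lower (-0.81), and among 15 Hedgehog and retinoid genes the Hedgehog receptor Ptch1 was lower (-0.70). The calls of Dlk1, Nnat, Vkorc1, Znrf3 and Ptch1 were each lost without E14.5 and without E15.5, with edgeR adjusted p from 0.0802 to 0.635.

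Transcription factors gave calls in both directions. Of 26 palate and face factors, Osr1 and Alx1 were higher and Dlx1 and Zeb2 lower. Alx1 went from 0.79 to 0.17 against mesenchyme without barred genes, and Zeb2 from -0.66 to -0.21 with at most 5 UMIs of a gene per barcode. Osr1, a factor of connective tissue progenitors, was at 57.5, 32.3 and 86.9 CPM in members against 27.3, 26.2 and 30.5 CPM, and its log2 fold change was 1.17 against all other mesenchyme and 0.01 against mesenchyme without barred genes. Of 17 factors known from fibroblasts, Klf2 was higher (log2 fold change 0.95), Ebf2 and Zfhx3 were lower (-0.68 and -0.74), and Nfia and Nfib, the most abundant, had log2 fold changes of 0.14 and 0.17. Klf2 was at 1.64 against mesenchyme without barred genes (edgeR adjusted p = 0.0624). Zfhx3 turned to 0.06 against mesenchyme without barred genes, and Ebf2 was at -0.07 with at most 5 UMIs of a gene per barcode. Early response genes gave 3 rises of 17 (Atf3, Fos and Ier2) and a fall of the chaperone gene Hsp90aa1, with a median of 0.34. Atf3 was at 268, 41.6 and 48.1 CPM in members against 29.5, 27.7 and 51.6 CPM, with 33.3% of the UMIs in 1 barcode. Without E13.5 its log2 fold change went from 1.17 to 0.22 (edgeR adjusted p = 0.789), and with at most 5 UMIs of a gene per barcode to 0.63 (0.265). Hsp90aa1 also missed the threshold with that limit (-0.18, edgeR adjusted p = 0.447). Fos stood at 326, 444 and 655 CPM in members against 235, 238 and 463 CPM.

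**Figure D4:**
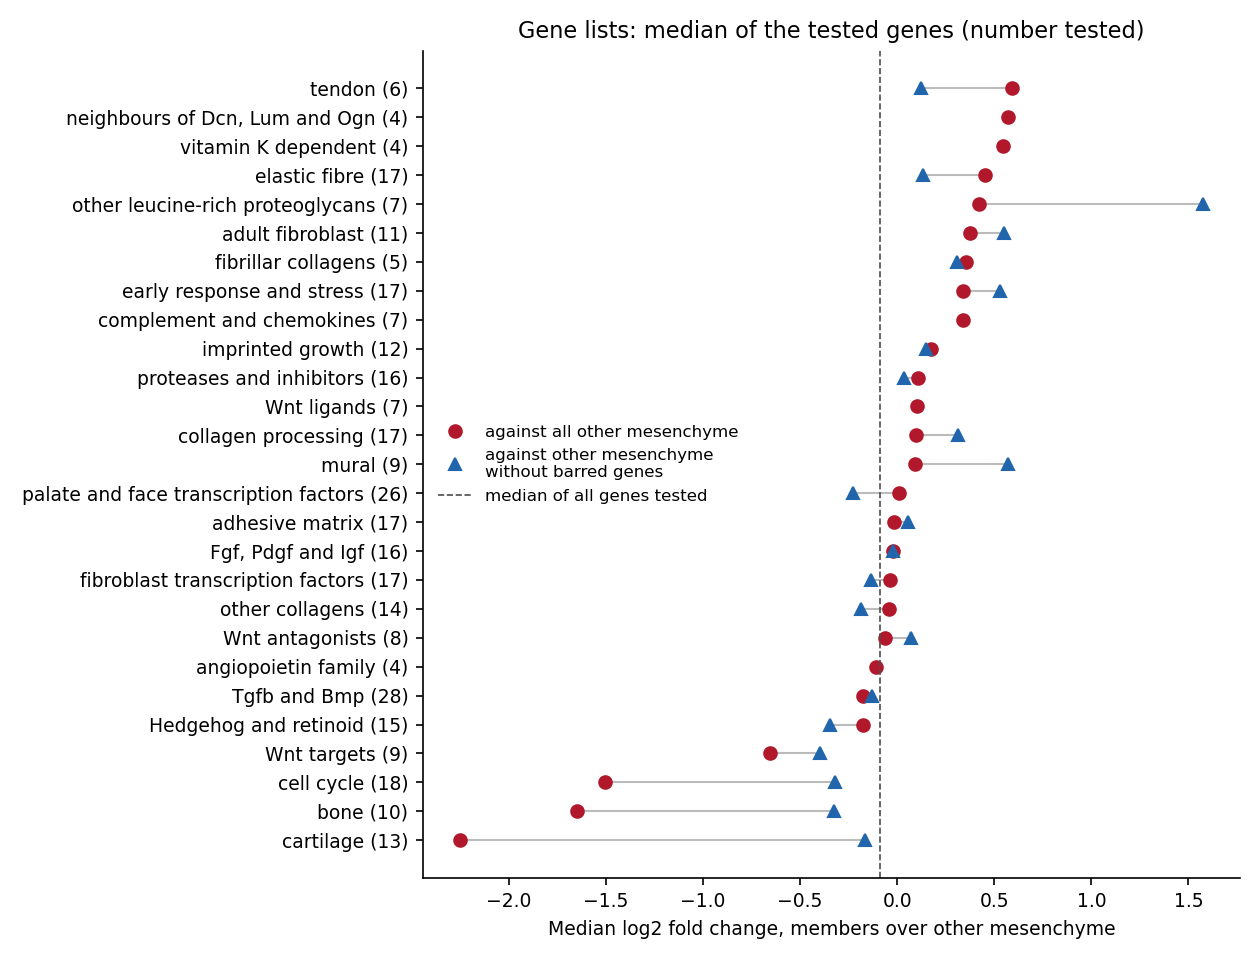
Median log2 fold change of each gene list in members over all other mesenchyme (circles) and over other mesenchyme without the 9 barred genes (triangles, drawn where at least 3 genes were tested). The number tested against all other mesenchyme is in brackets, and the dashed line is the median of all genes, -0.09. Elastic fibre genes lie at 0.45, and at 0.13 in the closer comparison, and cell cycle, bone and cartilage medians lie far below the line only against all other mesenchyme.

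The largest falls were in genes of the classes that the barred genes mark. Of 10 bone genes 6 were lower, of 13 cartilage genes 10 and of 18 cell cycle genes 11, with medians of -1.65, -2.25 and -1.51. The 10 named falls were Kif15, Knl1, Ibsp, Cdca8, Kif11, Cenpf, Ccnb2, Cenpe, Ube2c and Diaph3, of which Ibsp is a bone matrix gene and most others act in mitosis. Members may hold no Runx2, Col2a1, Top2a or Mki67 by the rule, so nothing is read from these counts. Against mesenchyme without barred genes the 3 medians were -0.32, -0.17 and -0.32 over 3, 5 and 3 genes tested, with no edgeR call and 1, 0 and 0 genes at an unadjusted p under 0.05. Sox6, a cartilage factor that the rule does not name, stood at 220, 134 and 88.8 CPM in members against 523, 751 and 642 CPM, and had a log2 fold change of -0.17 in the closer comparison.

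Members were also compared among themselves by whether they held a UMI of Mgp, Ogn or Lum, with the genes of the rule left out of the test. A member without one of these had to hold 2 or more of the other 4 markers, so the rule itself makes the groups differ in marker content. With and without Mgp, edgeR called 0 of 2893 genes (414 at an unadjusted p under 0.05, smallest adjusted p 0.101). With Lum, 1 of 2803 genes was higher (0.0357%): Lingo2, a leucine-rich repeat membrane protein gene that lies on chromosome 4 and not beside Lum. Lingo2 was at 281, 407 and 826 CPM in members with Lum and 73.2, 106 and 136 CPM in those without. Members with Lum were higher in each library, by a log2 fold change of 2.32 ± 0.28 (SE, n = 3 libraries, edgeR adjusted p = 0.00655). It passed without each library in turn (adjusted p from 5.57e-13 to 0.0273) and not after thinning (1.12, adjusted p = 0.936). Of its 359 UMIs in members, 27.0% lay in 1 barcode, and 59 barcodes held at least 1. Without E13.5, E14.5 or E15.5 the number of genes called was 28, 29 and 8.

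With Ogn, 7 of 2807 genes were lower (0.249%) and none was higher in the edgeR fit, where 69 higher genes had an unadjusted p under 0.05. They were Ppfia2, Erbb4, Kif1a, Cdh6, Nrg1, Nrxn3 and Dlgap1. Nrxn3, a presynaptic adhesion gene, stood at 528, 15 and 36.9 CPM with Ogn and 3702, 60.5 and 31.0 CPM without, so that the difference lay mainly at E13.5, and 51.0% of its UMIs came from 1 barcode. A single barcode also held 75.9% of the members' UMIs of Kif1a and 47.4% of those of Erbb4, and from 10.8% to 21.4% in the other 4 genes. Without E13.5 edgeR called 0 genes (255 at an unadjusted p under 0.05), and without E14.5 and E15.5 there were 3 and 12.

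The stages were compared within members without a test, since each stage is 1 library. A gene is counted as higher or lower when its CPM differed at least 2-fold, the counting interval of the ratio left out 1 and the higher stage had at least 50 CPM. Of 4836 genes, 376 were higher at E14.5 than at E13.5 (7.78%) and 390 lower (8.06%). Other mesenchyme moved in the same direction for 346 and 331 of these. Of 4516 genes, 169 were higher at E15.5 than at E14.5 (3.74%) and 150 lower (3.32%), with 114 and 103 in the same direction in other mesenchyme.

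Matrix genes led the step from E13.5 to E14.5. Of 11 collagens outside the fibrillar class 8 were higher, of 4 fibrillar collagens 3, and none was lower. The list medians on the log2 scale were 1.93 and 1.75 in members, 2.20 and 2.24 in other mesenchyme, and -0.12 over all genes. Col12a1, a fibril-associated collagen, went from 125 to 476 CPM in members and from 96.6 to 449 CPM in other mesenchyme. Aspn went from no UMI to 813 CPM, with a counting interval of the ratio that starts at 22.8-fold, which was the largest step upward. Kera and Bgn were also counted as higher. The other named genes that were higher, all from no UMI at E13.5, were Cntn6, Ccnb1ip1, Cntn3 and Anxa1, which reached 208, 189, 171 and 143 CPM.

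All 3 Wnt antagonists with enough RNA were higher at E14.5: Sfrp2, Sfrp1 and Dkk2. Sfrp2, a secreted Wnt-binding protein, was at 86.3, 813 and 858 CPM in members of the 3 libraries, and at 195, 586 and 647 CPM in other mesenchyme. The list's median log2 ratio was 1.79 in members and 1.58 in other mesenchyme. Nfib was at 1131, 1701 and 2190 CPM, a steady order with no 2-fold step. Of 7 neuronal genes, 5 had enough RNA, and all 5 were lower at E14.5. The genes named as lower at this step were Ptprn2, Sox2ot, Dlgap2, Erbb4 and Rhbdl2, and in 3 of these 5 a single barcode held over 50% of the UMIs (all of them for Rhbdl2).

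**Figure D5:**
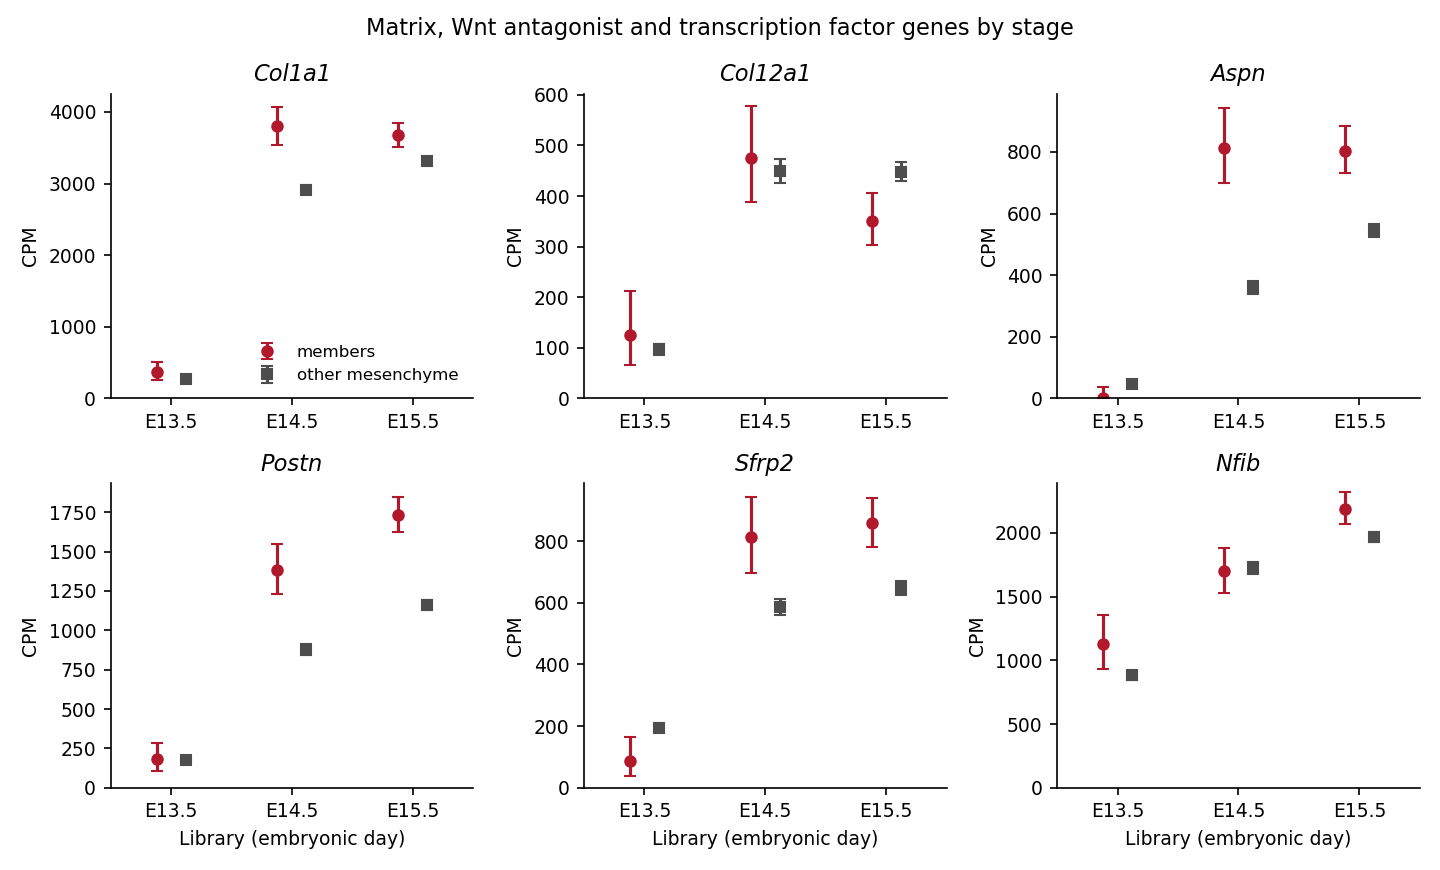
CPM of 6 genes in members (circles) and other mesenchyme (squares) of each library, with exact 95% Poisson intervals. Col1a1, Col12a1, Aspn, Postn and Sfrp2 are low at E13.5 in both groups and high at E14.5 and E15.5, and Nfib stands at 1131, 1701 and 2190 CPM in members.

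From E14.5 to E15.5 the matrix lists moved little. No collagen, elastic fibre, adhesive matrix or collagen processing gene was counted as higher or lower, and Kera was counted as lower (83.2 to 38.8 CPM). Early response genes stood higher in 14 of 14 cases, of which Fosb, Hspa1a and Ier3 were counted, with a median log2 ratio of 0.64 in members and 0.98 in other mesenchyme. Osr1 was counted as higher (32.3 to 86.9 CPM) and Lef1, a Wnt effector and target, as lower (64.7 to 16.6 CPM). The named genes of this step rest on few barcodes: in 3 of 5 higher ones (Lockd, Aunip and Arf4os) and 4 of 5 lower ones (Ddb2, Nfatc2, Nfs1 and Styxl1) a single barcode held over 50% of the members' UMIs. The remaining ones were Ndufa4l2 (4.62 to 104 CPM), Klhl1 (9.24 to 113 CPM) and Zfp60 (217 to 33.3 CPM).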

How the data were processed

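Single-cell RNA was measured in 3 libraries of mouse palatal shelves. The values are UMI counts per gene and barcode as the authors deposited them, made with Cell Ranger 6.1.2 per the submitters' processing notes, which also name the build mm10. They are raw counts of 32285 genes.

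Members, gene lists and comparisons were chosen with earlier results of these data known. Counts were summed per library over members and over other mesenchymal barcodes and scaled to CPM. Sums were tested with edgeR 4.0.16 (R 4.3.3) by the quasi-likelihood test, with filterByExpr on the design, TMM scaling and the library as a block, and p-values were Benjamini-Hochberg adjusted over all genes tested. The 20 rule genes were left out. The script was tested on simulated counts of 11872 genes for this comparison: 31% of 2-fold and 87% of 3-fold changes were recovered, and 3 of 121 calls were false. The 3 libraries are different stages, and the p-values rest on the counts and on dispersions that edgeR shares over genes. They do not measure how alike the 3 library ratios were. Stage steps used log2 ratios of CPM with 1 CPM added, with no test.

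Thinning drew 1500 UMIs per barcode without replacement and left out shallower barcodes. Doublets were kept: scrublet in scanpy 1.11.5 called 0, 4 and 1 barcodes, too few to have worked, and leaving out the highest scores at 0.8% per 1000 barcodes was an alternative that took 0, 0 and 3 members.

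Named genes were the 15 largest rises and 10 largest falls past the threshold with 1 direction in all libraries and 50 CPM in the higher group, the 3 highest and 2 lowest of each list, and the 5 largest rises and falls of each stage step with 100 CPM. Genes of the lists that passed the test are also named, and were chosen after their values were seen. Predicted, mitochondrial and ribosomal genes are counted, not named. A few other genes that meet these rules are counted but not reported here. Positions are from GENCODE vM21 and promoters from RefSeq, which held 2 of the 5 markers. Alternatives covered the number of markers, the gene minimum, the marker set, thinning, doublets, the gate, the filter, size factors, DESeq2 1.42.0, the block and each library left out.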

Additional observations from a re-analysis of the deposited data

How the results depend on the processing

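With 3 or more markers the member shares were 0.135%, 2.03% and 4.20%. Without Mgp among the markers they were 0.569% at E13.5 and 7.50% at E15.5, and after thinning the E15.5 share was 10.9%. In the comparison with other mesenchyme the numbers of genes higher and lower were 36 and 132 with 3 or more markers, 106 and 300 without Mgp, 42 and 74 after thinning, and 22 and 75 with DESeq2. They were 6 and 4 against mesenchyme without barred genes, and 1 and 1 where both groups also passed the gate, a comparison added after seeing the data. Rises numbered 120 with a minimum of 1000 genes, 104 for members in the gate, 113 with no filter on low counts, and 522 with at most 5 UMIs of a gene per barcode, also added after seeing the data. Without each library in turn, rises ranged from 33 to 614 and falls from 125 to 553. With no replicate block, which leaves the pairing of both sums within a library unused, 0 genes were higher and 5 lower. The cause of these shifts was not tested, except that thinning and closer groups leave fewer UMIs.

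For E14.5 against E13.5, 92 genes were higher and 247 lower with 3 or more markers, and 129 and 235 after thinning. For E15.5 against E14.5, 111 were higher after thinning, 246 lower with 3 or more markers, and 278 and 236 with a 20 CPM minimum. The split by Mgp gave 31 calls after thinning and 0 to 13 with a library left out. The split by Ogn gave 0 after thinning and with no replicate block, and 0 to 12 with a library left out. The split by Lum gave 0 after thinning and with no replicate block, and 8 to 29 with a library left out. Directions reversed for Ptprn2 after thinning (3.40), Lockd with 3 or more markers (-1.41), Zfp60 with a minimum of 1000 genes (1.11) and after thinning (0.37), and Nfatc2 after thinning (3.58), all log2 ratios of stage steps whose cause was not tested.

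At E13.5 the members' sum of 104343 UMIs makes 1 UMI worth 9.58 CPM, so genes under 28.8 CPM could not be told from 0 there.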
